A study of Mus musculus with 9 samples.

Results

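The Snrpn imprinted domain of mouse chromosome 7 was described through the CTCF peaks that lie in it. Its members were the peaks of the merged CTCF peak list between the first base of Ube3a and the last base of Peg12, with 20 kb added on each side, which also takes in Snrpn, Ndn, Magel2 and Mkrn3 (GRCm38, GENCODE M21). The stretch, chr7:59208750-62484510, is 3.28 Mb long and held 144 of the 225769 peaks. CTCF was mapped by ChIP-seq in female primary neural stem cells (NSCs) grown from the cortices of E14.5 embryos. The control cells, Smchd1GFP, were homozygous for an Smchd1 allele fused to GFP. The MommeD43-GFP cells were homozygous for the same tagged allele with the MommeD43 point mutation added by CRISPR editing. The Smchd1_del cells were Smchd1 del/del, made in culture from floxed cells with a retrovirus that carries Cre and puromycin resistance, and they have no GFP tag. The loss of SMCHD1, the virus with any drug selection, and the missing tag therefore cannot be told apart. There were 3, 3 and 2 independent lines of these genotypes in that order, and 1 control line gave an input library, which has no column in the table.

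The domain is the mouse counterpart of the human Prader-Willi and Angelman region. Snrpn, Ndn, Magel2, Mkrn3 and Peg12 are transcribed from the paternal chromosome, while Ube3a, a ubiquitin ligase gene, is transcribed mainly from the maternal chromosome in neurons, where the long transcript Snhg14, host of the Snord115 and Snord116 clusters, runs antisense to it on the paternal copy. CTCF is a zinc finger protein that binds insulators and the borders of chromatin loops, and SMCHD1 is a non-canonical SMC protein that takes part in silencing of imprinted clusters and of the inactive X chromosome.

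Each value is the authors' mean, over the libraries of a genotype, of log2 reads per M over the peak, not divided by peak length. There is 1 value per genotype at each peak, so no difference could be set against the spread between libraries and no test was run. An error given as ± is the counting error (SE) of reads decoded from the values, and it covers counting only. The decoded libraries had a geometric mean of 41.7 M reads in Smchd1GFP, 49.2 M in MommeD43-GFP and 49.97 M in Smchd1_del, and a peak at the median level held 30.0, 34.9 and 34.5 reads per library. Both mutants are compared with the same Smchd1GFP value, so their differences are not independent of each other.

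The core CTCF motif, which spans 12 bases, is a sequence that CTCF is known to bind. The 7 matches to it, on either strand, are shown because 5 of them lie under peaks and 4 of those 5 lie from just before Magel2 to Peg12. Each is printed 5′ to 3′ on the strand of the motif from GRCm38, with the motif in capitals and 19 bases on its left.

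no peak motif at chr7:61510240-61510251, plus strand: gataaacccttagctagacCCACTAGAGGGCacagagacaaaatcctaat
peak motif at chr7:62072012-62072023, plus strand: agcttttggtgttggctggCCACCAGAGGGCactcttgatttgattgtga
peak motif at chr7:62375844-62375855, minus strand: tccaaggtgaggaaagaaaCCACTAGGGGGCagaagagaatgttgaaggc
peak motif at chr7:62382603-62382614, minus strand: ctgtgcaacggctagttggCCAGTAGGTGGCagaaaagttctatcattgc
no peak motif at chr7:62400289-62400300, minus strand: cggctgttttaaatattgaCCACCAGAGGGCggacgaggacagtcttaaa
peak motif at chr7:62433457-62433468, minus strand: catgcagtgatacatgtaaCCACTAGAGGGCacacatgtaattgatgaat
peak motif at chr7:62436555-62436566, plus strand: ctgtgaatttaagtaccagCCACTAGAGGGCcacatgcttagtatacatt

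The share of core matches under a peak was 71.4% in the domain and 68.8% of 13119 matches in the genome. For the relaxed form of the motif, which leaves 3 of the 12 positions free, 9 of 71 domain matches (12.7%) were under a peak, against 34.9% in the genome. Counted by peak, 3.47% of domain peaks held a core motif and 6.25% a relaxed motif, against 3.79% and 17.0% of all peaks. Every core match is also a relaxed match.

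CTCF peaks were sparse and low across the domain in all genotypes. There were 44.0 peaks per Mb against 85.3 per Mb over the genome. The median level over the 3 columns was -1.04 against -0.53 for all peaks, and 41 of the 144 (28.5%) reached the median level of all peaks. By genotype, the domain median was -0.98 in Smchd1GFP, -1.04 in MommeD43-GFP and -0.93 in Smchd1_del. The peaks were rich in repeats, with a median of 51.0% of bases masked against 16.2% for all peaks, and the GC content was alike, at 47.8% for both. The stretch also holds an assembly gap of 50000 bases. How far repeat content bears on the levels was not tested.

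**Figure D1:**
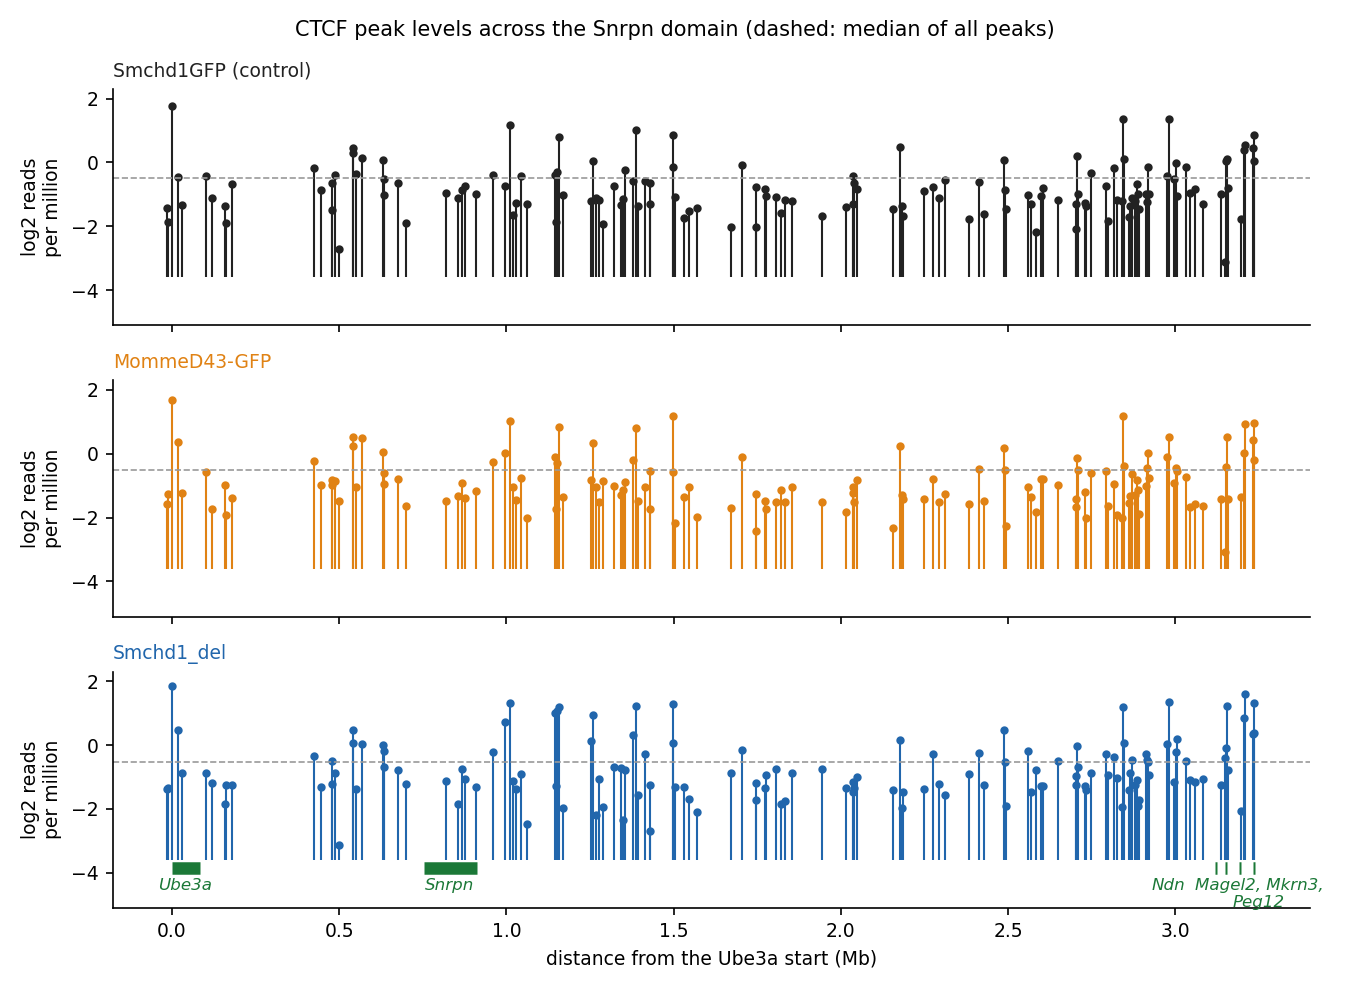
CTCF level, in log2 reads per M, of the 144 domain peaks in each genotype against the distance of the peak centre from the Ube3a start in Mb, with the dashed line at the median of all peaks and green bars for the 6 genes. The Ube3a start peak is the highest in Smchd1GFP at 1.77, and the stretches around Snrpn and Ndn hold few peaks above the line.

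Ube3a had 3 peaks. The peak over its start, chr7:59228101-59229900, was the highest of the domain, at 1.77 in Smchd1GFP, 1.69 in MommeD43-GFP and 1.84 in Smchd1_del. It differed from the control by -0.08 ± 0.10 in MommeD43-GFP and by 0.07 ± 0.10 in Smchd1_del, in both cases less than the counting error. The 250 bases before this start, read from RefSeq (GRCm38.p6) in the direction of transcription, are shown because the tallest peak covers them. CpG dinucleotides are in capitals.

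Ube3a, before the start at chr7:59228750: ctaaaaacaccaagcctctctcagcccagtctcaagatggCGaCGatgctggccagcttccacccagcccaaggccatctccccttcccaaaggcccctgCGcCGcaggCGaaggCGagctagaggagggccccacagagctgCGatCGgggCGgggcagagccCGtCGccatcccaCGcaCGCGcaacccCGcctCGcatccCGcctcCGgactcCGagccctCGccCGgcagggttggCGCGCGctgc

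This window holds 24 CpG and is 70% GC, where the median RefSeq promoter holds 6 CpG in the same length, and it has no relaxed motif. An intronic peak, chr7:59245351-59246100, lay at -0.47 in the control, which is the median of all peaks in that column, and was higher in both mutants, at 0.37 in MommeD43-GFP and 0.47 in Smchd1_del. The differences were 0.84 ± 0.18 and 0.94 ± 0.20, 1.79-fold and 1.92-fold, and the peak holds a relaxed motif 10 bases from its centre. The third peak, chr7:59257951-59258400, lay at -1.33, -1.22 and -0.86 in Smchd1GFP, MommeD43-GFP and Smchd1_del. The 2 peaks in the flank before Ube3a were both low, with mean levels of -1.47 and -1.49.

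Between Ube3a and Snrpn all 20 peaks lay in Snhg14, the host of the snoRNA clusters. The annotation has 210 snoRNA genes in the domain, and 16 of them lay within 1 kb of a peak. The longest stretch of the domain without a peak, 244.5 kb at chr7:59409301-59653800, holds 108 of the snoRNA genes and is 84.8% repeat. Of the 20 peaks, 13 form a group in which each shares at least 90% identity over 250 bases with another, and 3 more form a second such group. Each of the 13 has between 17 and 67 further copies of at least 95% identity in the genome. A read from such a copy can be placed at another, so the levels here are uncertain. The highest peak, chr7:59768551-59769300, was at 0.44, 0.53 and 0.47 in Smchd1GFP, MommeD43-GFP and Smchd1_del. Over the 20 peaks the median difference from the control was -0.07 in MommeD43-GFP and -0.15 in Smchd1_del. Above 0 were 7 peaks (35%) and 6 peaks (30%), against 50.8% and 46.6% of all peaks. Snord64, Snord107 and Snurf had no peak, and 3 peaks lay within 1 kb of the 17 Snord116l records.

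Snrpn encodes a small nuclear ribonucleoprotein, and its start with that of Snurf lies at the imprinting centre. Its 5 peaks were all below the median level of all peaks, between -0.83 and -1.43. No peak lay within 42.5 kb of the start at chr7:60005199, which falls in the second longest stretch without a peak, 119.85 kb. The bases before that start are shown for the contrast with Ube3a.

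Snrpn, before the start at chr7:60005199: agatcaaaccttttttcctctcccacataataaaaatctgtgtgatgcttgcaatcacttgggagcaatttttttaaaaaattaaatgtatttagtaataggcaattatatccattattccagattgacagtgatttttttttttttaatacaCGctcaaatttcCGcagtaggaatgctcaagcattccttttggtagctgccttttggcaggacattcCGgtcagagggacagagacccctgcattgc

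This window has 3 CpG, is 36.8% GC and has no relaxed motif. An upstream start, at chr7:60047978, was covered by a peak, chr7:60047701-60048000, at -0.96 in Smchd1GFP, -1.48 in MommeD43-GFP and -1.12 in Smchd1_del. The difference in MommeD43-GFP was -0.52 ± 0.27. All 5 Snrpn peaks were lower in MommeD43-GFP than in the control, with differences from -0.64 to -0.04, and 4 of 5 were lower in Smchd1_del. The MommeD43-GFP differences of -0.22 ± 0.27, -0.17 ± 0.25 and -0.04 ± 0.24 were smaller than the counting error, and that of -0.64 ± 0.25 was larger. Values below 0 were common in the genome, where the median difference over all peaks was 0.01 in MommeD43-GFP and -0.04 in Smchd1_del.

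From Snrpn to Ndn, a stretch of 103 peaks, the median level was -1.12 and 26 peaks reached the median level of all peaks. The highest was chr7:62071051-62073150, which holds a core motif 82 bases from its centre and lay at 1.36 in Smchd1GFP, 1.19 in MommeD43-GFP and 1.20 in Smchd1_del. It is the only core-motif peak of the domain that was lower in Smchd1_del, by a difference of -0.16 ± 0.12. Among those 26, the lowest MommeD43-GFP difference was at chr7:62209051-62209950, with 1.37 in the control, 0.51 in MommeD43-GFP and 1.34 in Smchd1_del, a difference of -0.86 ± 0.13. The lowest Smchd1_del difference among the 26, at chr7:62145901-62146950, was -0.41 ± 0.22. The level used to choose the 26 includes the Smchd1_del value, so peaks low in Smchd1_del can be left out beforehand. Among those left out was chr7:61264801-61265550, at -0.42 in Smchd1GFP and -1.47 in Smchd1_del, a difference of -1.05 ± 0.28. Over all 103 peaks of the stretch the Smchd1_del differences ran from -1.38 to 1.47.

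The 3 largest Smchd1_del differences among the 26 were at peaks whose sequence is repeated at other peaks of the stretch, in 2 families called copies A and copies B here. Those of copies A were chr7:60378901-60380250, chr7:60481351-60482250 and chr7:60607951-60609150. Their differences from the control in Smchd1_del were 1.38 ± 0.17, 1.34 ± 0.24 and 0.88, and in MommeD43-GFP 0.02, 0.39 and 0.39. Copies B, chr7:60223501-60224850 and chr7:60373051-60374400, differed by 1.47 ± 0.20 and 1.42 ± 0.18 in Smchd1_del and by 0.78 ± 0.20 and 0.30 ± 0.19 in MommeD43-GFP. In levels, the first of copies A lay at -0.31 in Smchd1GFP, -0.29 in MommeD43-GFP and 1.07 in Smchd1_del, and the first of copies B lay at -0.75 in Smchd1GFP, 0.03 in MommeD43-GFP and 0.72 in Smchd1_del. Stretches of 100 aligned bases from GRCm38 show how near the copies are, with capitals at the bases that differ from the first copy of each family.

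copy A at chr7:60379607-60379706: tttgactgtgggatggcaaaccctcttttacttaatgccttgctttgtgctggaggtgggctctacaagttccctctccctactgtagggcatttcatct
copy A at chr7:60481751-60481850: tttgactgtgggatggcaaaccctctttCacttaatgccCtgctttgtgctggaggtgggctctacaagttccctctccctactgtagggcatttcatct
copy A at chr7:60608629-60608728: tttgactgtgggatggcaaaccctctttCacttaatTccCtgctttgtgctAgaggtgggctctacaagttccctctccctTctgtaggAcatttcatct
copy B at chr7:60224173-60224272: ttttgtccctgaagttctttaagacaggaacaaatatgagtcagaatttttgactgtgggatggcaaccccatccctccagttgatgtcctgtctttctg
copy B at chr7:60373761-60373860: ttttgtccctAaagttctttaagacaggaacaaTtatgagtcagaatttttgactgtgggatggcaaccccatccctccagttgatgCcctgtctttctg

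Over the aligned parts the other copies A were 97.3% and 93.2% identical to the first, and the second copy B was 93.1% identical to its first. None holds a relaxed motif. The 6 peaks of copies C, a further family, differed from the control by 0.13 to 0.90 in Smchd1_del and by -0.43 to 0.32 in MommeD43-GFP. Lower values also occurred in other groups. In Smchd1_del the peaks of a pair starting at chr7:60289651 and chr7:60658201 differed by -1.18 and -0.62, and those of a pair starting at chr7:60249151 and chr7:60396301 by 0.52 and -0.95. Over all 37 domain peaks that share sequence, the median Smchd1_del difference was 0.13, with 20 above 0 (54.1%, against 46.6% of all peaks). The groups were found after the values had been seen. Copies share sequence, so peaks of a family are not independent measurements.

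**Figure D2:**
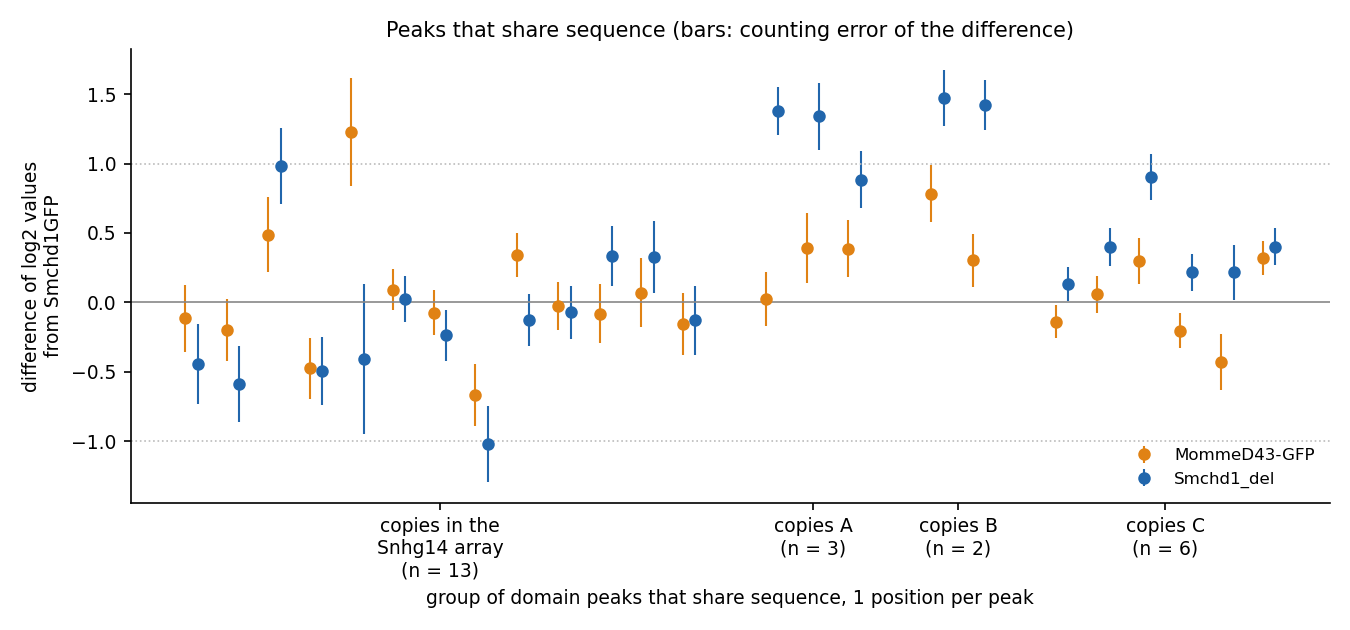
Difference of log2 values from Smchd1GFP at each peak of 4 groups of domain peaks that share sequence, with bars for the counting error and dotted lines at 2-fold. Copies A and B sit between 0.88 and 1.47 in Smchd1_del, while the 13 copies in the Snhg14 array scatter on both sides of 0.

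Ndn, which encodes the growth suppressor necdin, had no peak within 1 kb, and the nearest lay 16.9 kb from its start. That peak, chr7:62365201-62365650, was the single peak between Ndn and Magel2, at -0.99 in Smchd1GFP, -1.42 in MommeD43-GFP and -1.27 in Smchd1_del. Mkrn3, a ring finger gene, had none either, and the nearest was 3.10 kb away. The 1 peak between Magel2 and Mkrn3, chr7:62385151-62385750, lay at -0.81, -1.42 and -0.77.

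Magel2, which encodes a regulator of ubiquitin ligases in endosomal transport, had 3 peaks. The peak just before its start, chr7:62375401-62376150, held few reads in the control, at -3.11 or 4.82 reads per library, and in MommeD43-GFP, at -3.07 or 5.85 reads. It stood at -0.39, or 38.1 reads, in Smchd1_del. The difference from the control was 2.72 ± 0.41, 6.58-fold, the largest of the domain, while MommeD43-GFP differed by 0.04 ± 0.51. The list merges peaks called in each genotype, so this peak can be in it through Smchd1_del alone. Its high value there may be what placed it in the list. The peak lies in the annotated gene Gm32061, holds a core motif and ends 0.829 kb from the RefSeq start. A peak in the gene body, chr7:62380201-62381100, lay at 0.06, -0.43 and -0.08, and has no motif. The third, chr7:62382001-62383050, lies past the gene's end and holds a core motif. It was at 0.11 in Smchd1GFP, 0.53 in MommeD43-GFP and 1.21 in Smchd1_del, so MommeD43-GFP was 0.42 ± 0.16 above the control and Smchd1_del 1.09 ± 0.16.

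Between Mkrn3 and Peg12 there were 3 peaks. The first, chr7:62423251-62423550, was low, at -1.78, -1.37 and -2.06. The second, chr7:62433151-62434050, holds a core motif in a stretch that is 63.2% repeat, and lay at 0.39, 0.03 and 0.84. Parts of it have 20296 further alignments of at least 95% identity over 250 bases or more in the genome, so its level is uncertain as in the Snhg14 array. The third, chr7:62436001-62437200, also holds a core motif and lay at 0.56 in Smchd1GFP, 0.94 in MommeD43-GFP and 1.61 in Smchd1_del, with differences of 0.39 ± 0.14 and 1.05 ± 0.13.

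Peg12, a Frat family gene, had 3 peaks, all at or above the median level of all peaks. The peak over its start, chr7:62464051-62464950, lay at 0.04, -0.20 and 0.39. The peak in the gene, chr7:62462251-62463900, lay at 0.87, 0.97 and 1.32 and holds a relaxed motif. The peak after its end, chr7:62460151-62461650, was nearly level at 0.46, 0.43 and 0.35. There was no peak in the flank after Peg12. The 250 bases before the starts of Ndn, Magel2, Mkrn3 and Peg12 hold 5, 7, 10 and 8 CpG, and none of these windows holds a relaxed motif.

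**Figure D3:**
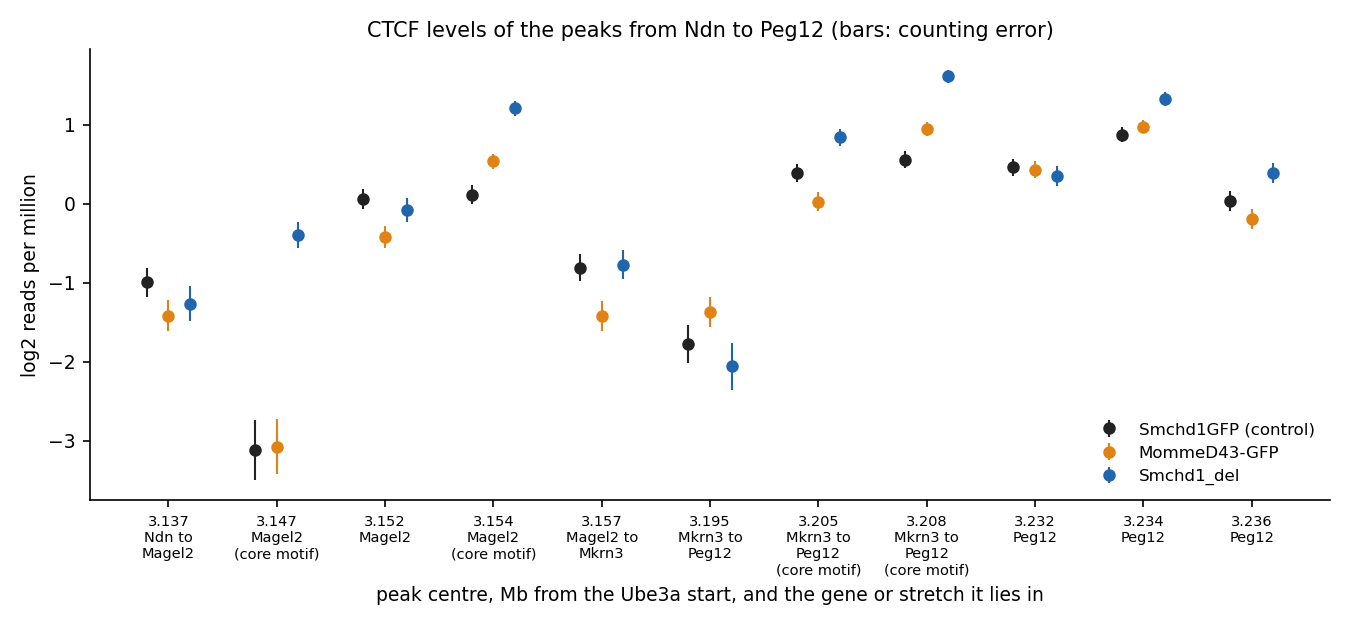
CTCF level in log2 reads per M, with the counting error, of the 11 peaks from the stretch between Ndn and Magel2 to Peg12 in each genotype, in order along the chromosome. The peak before Magel2 is at -3.11 in Smchd1GFP and -0.39 in Smchd1_del, and Smchd1_del is above Smchd1GFP at each of the 4 peaks with a core motif, 1 of which has many further alignments in the genome.

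Among the 5 core-motif peaks of the domain, 3 were at least 2-fold higher in Smchd1_del than in the control, where 5.2% of all 8560 core-motif peaks were. None was 2-fold higher in MommeD43-GFP, where 1.74% of core-motif peaks were, and 1 was 2-fold higher in Smchd1_del than in MommeD43-GFP, against 0.923%. The median Smchd1_del difference over all core-motif peaks was 0.13. The one with many alignments in the genome is not among the 3. The peak before Magel2 is among the 3, and it can be in the list through Smchd1_del alone. With 5 peaks, 4 of them within a short stretch, these counts describe the domain only.

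Over the whole domain, the median MommeD43-GFP difference from the control was -0.06, against 0.01 over all peaks. Above 0 were 63 of 144 peaks (43.8%), against 50.8% of all peaks. The 95% order-statistic bounds of the domain median, taken over peaks, were -0.16 and 0.02. Such bounds treat neighbouring peaks as independent and say nothing of the spread between libraries. At 2-fold, 2 peaks (1.39%, against 2.08% of all peaks) were higher and 1 (0.694%, against 0.718%) was lower, all 3 of them below the median level. None of the 41 peaks that reached the genome-wide median was past 2-fold, and over the genome 0.41% of such peaks were higher and 0.0585% lower. At 1.5-fold the counts leaned to lower peaks, with 23 lower (15.97%, against 5.84% of all peaks) and 7 higher (4.86%, against 8.64%).

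Smchd1_del had a median difference from the control of 0.00 over the domain, with bounds of -0.13 and 0.13, against -0.04 over all peaks. Above 0 were 72 of 144 peaks (50%), against 46.6% of all peaks. At 2-fold, 11 (7.64%) were higher, against 3.31% of all peaks, and 7 (4.86%) were lower, against 1.85%. Low peaks pass 2-fold more often across the genome. Among the 103 domain peaks below the median level, 5 (4.85%) were higher and 7 (6.80%) lower, against 5.08% and 3.37% of such peaks over the genome. At 1.5-fold, 27 (18.8%, against 10.7%) were higher and 19 (13.2%, against 10.3%) were lower. Among the 41 peaks that reached the genome-wide median, 6 were higher (genome 1.54%) and none lower (genome 0.34%), and the median difference was 0.22. That filter takes the mean of the 3 columns, so a peak can pass it by being high in Smchd1_del. With the filter set on the Smchd1GFP value alone, 42 peaks were kept, 4 of them higher (genome 0.871%) and 2 lower (genome 1.11%), and the median was -0.06 against -0.10 over the genome. The absence of lower peaks and the sign of the median at this level thus depended on the column used for the filter. The 6 were 3 of copies A and B, the peak after the end of Magel2, the core-motif peak nearest to Peg12, and chr7:62233951-62234850, at -1.05 in Smchd1GFP and 0.19 in Smchd1_del. Of the 11 higher peaks, 4 share sequence with another domain peak. The peak before Magel2, which can be in the list through Smchd1_del alone, is also among the 11. Others of the 11 can be in it the same way, such as chr7:60898951-60899400, chr7:61811401-61811850 and chr7:61932751-61933200. These held 10.3, 9.22 and 9.74 reads per library in the control, against 27.3, 29.3 and 25.5 in Smchd1_del. Lower peaks can in turn be in the list through the control or MommeD43-GFP. The 7 lower peaks, with differences from -1.38 to -1.02, all had a mean level below that of the median peak, and 5 of them have a further copy of at least 95% identity in the genome.

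Smchd1_del against MommeD43-GFP gave a median of 0.15, with bounds of 0.08 and 0.27, against -0.03 over all peaks. At 2-fold, 5 peaks were higher and 4 lower, where 1.08% and 1.26% of all peaks were. Of the 103 peaks below the median level, 3 (2.91%) were higher and 4 (3.88%) lower, against 1.93% and 2.40% of such peaks over the genome. At 1.5-fold, 30 (20.8%, against 6.13%) were higher and 13 (9.03%, against 7.93%) lower. Of the 41 peaks, 2 were higher and none lower, against 0.23% and 0.114% over the genome.

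**Figure D4:**
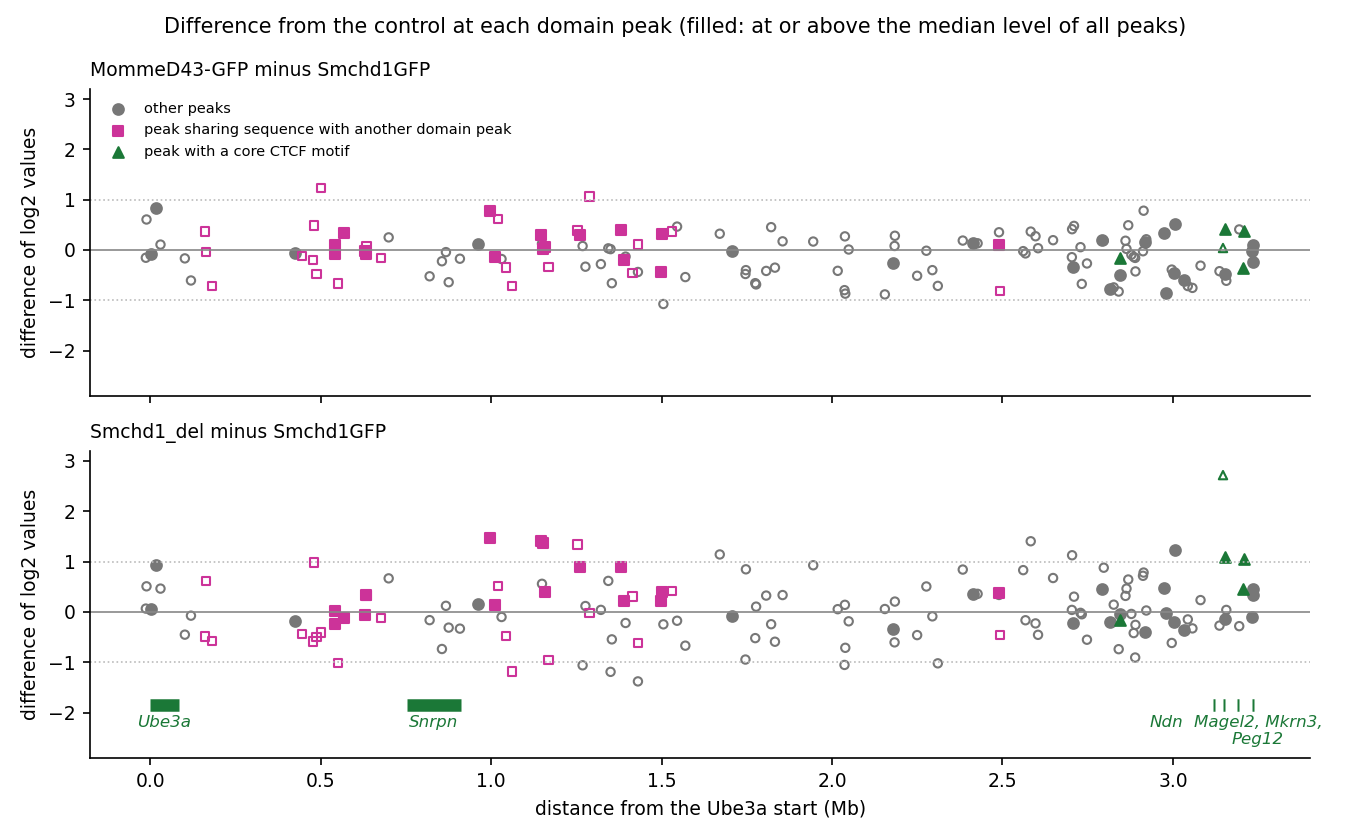
Difference of log2 values from Smchd1GFP at each of the 144 domain peaks for MommeD43-GFP (top) and Smchd1_del (bottom) against distance from the Ube3a start in Mb, with filled marks at or above the median level of all peaks and dotted lines at 2-fold. In Smchd1_del the 6 filled marks above 1 are 3 peaks of copies A and B, 2 peaks between Magel2 and Peg12 and 1 other, and none is below -1.

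Other stretches gave different values in the same columns, and no test was run between them. The neighbouring GABA receptor stretch from Atp10a to Gabrg3 had 165 peaks at 76.6 per Mb, a median Smchd1_del difference of -0.04, and 15 peaks (9.09%) higher and 2 (1.21%) lower by 2-fold, a share of higher peaks above the 7.64% of the Snrpn domain. The Kcnq1 domain had 62 peaks at 99.6 per Mb, a median of -0.10, and 0 higher and 1 (1.61%) lower. The Dlk1-Meg3 domain had 100 peaks at 115 per Mb, a median of -0.24, and 1 (1%) higher and 2 (2%) lower. For MommeD43-GFP the median differences of these 3 stretches, in that order, were 0.02, -0.05 and -0.19, against -0.06 in the Snrpn domain. Above 0 were 52.1%, 38.7% and 35% of their peaks, against 43.8%. A lean of MommeD43-GFP below the control was thus not particular to the Snrpn domain. In level, the GABA receptor stretch was lower than the Snrpn domain, with a median of -1.12 against -1.04. Of its peaks, 21.8% reached the median level of all peaks, against 28.5%, so low levels were not particular to the domain. The Kcnq1 domain had a median level of 0.26 and a share of 74.2%, and the Dlk1-Meg3 domain -0.30 and 60%.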

How the data were processed

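The authors made 3 Smchd1GFP, 3 MommeD43-GFP and 2 Smchd1_del CTCF ChIP-seq libraries from NSCs, and 1 input library. Per the labels, trimming used Trim Galore 0.4.4 with cutadapt 2.9, and mapping to GRCm38 used Bowtie2 2.3.4.1. Peaks were called in SeqMonk over the libraries of a genotype with reads extended by 180 bp and merged into a single list. The values deposited for each merged peak are log2 reads per M, pooled by the authors as 1 mean per genotype, so fits that need single libraries were not run. That scale was inferred from the values: the lowest ones decode to whole reads in the libraries (tolerance 0.01, 0 entered as 0.9), which also gave library sizes and counting errors. Decoding, fold counts and motif search were tested on simulated data. The fold counts were tested only at peaks at or above the median level, not at the lower peaks. Peaks were assigned to genes with 1 kb on each side. Peaks of the domain were aligned to each other and to the genome with BLAST+ 2.17.0 and copies with MAFFT 7.526. Tables were computed in Python 3.11.15 with pandas 2.3.3, numpy 2.4.6 and scipy 1.17.1. Named peaks were those at the 6 genes, those with a core motif, and in each stretch the highest level and the extreme differences at or above the median level. Peaks outside this rule, such as those of copies A and C and the peaks past 2-fold, were chosen after their values were seen. The members and lists were chosen with earlier results of these data known. Alternatives are given in the closing section.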

Additional observations from a re-analysis of the deposited data

How the results depend on the processing

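All values are pooled by genotype. No paired analysis was possible because the table gives 1 mean per genotype and no single libraries, and leaving out a library could not be done for the same reason. The median differences moved within their 95% bounds under every alternative run, except Smchd1_del minus Smchd1GFP at the peaks that reached the median level of all peaks, where it was 0.22. With the filter on the Smchd1GFP value alone it was -0.06. The counts are small and moved more. Counts are given as higher then lower. Leaving out peaks that share sequence also left out peaks with a further copy in the genome, which kept 93 peaks. Leaving out only the 37 peaks that share sequence with another domain peak kept 107. Those 107 gave 0 and 1 for MommeD43-GFP and 7 and 5 for Smchd1_del, each against Smchd1GFP. For Smchd1_del against MommeD43-GFP they gave 3 and 2. For MommeD43-GFP against Smchd1GFP (2 and 1 as deposited), quantile normalization gave 0 and 4, centring in 50 bins of level 0 and 7 (4.86% lower, against 1.31% of all peaks), centring in 20 bins of GC content 2 and 3, a threshold of 1.5-fold 7 and 23 (4.86% and 15.97%, against 8.64% and 5.84%), and leaving out peaks that share sequence 0 and 1. Either level filter, a pseudocount of 0.5 reads per M and a 4-fold threshold gave 0 and 0. For Smchd1_del against Smchd1GFP (11 and 7), subtracting column medians gave 13 and 4, quantile normalization 11 and 4, the mean-level filter 6 and 0, the filter on Smchd1GFP 4 and 2, the pseudocount 2 and 0, 1.5-fold 27 and 19 (18.8% and 13.2%, against 10.7% and 10.3%), 4-fold 1 and 0, leaving out peaks that share sequence 7 and 1, and peaks of at most 50% repeat 5 and 3. For Smchd1_del against MommeD43-GFP (5 and 4), quantile normalization gave 8 and 4, either level filter 2 and 0, the pseudocount 1 and 0, 1.5-fold 30 and 13 (20.8% and 9.03%, against 6.13% and 7.93%), 4-fold 1 and 0, leaving out peaks that share sequence 2 and 0, and at most 50% repeat 1 and 2. The other alternatives left each count within 1.5 times. The filter on Smchd1GFP, the repeat limit and leaving out shared sequence were chosen after seeing the data. With the gene body alone Magel2 had 1 peak, and with 5 kb added Mkrn3 had 1. Depth limits the lowest peaks, which hold few reads, and the cause of each change was not tested.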
